A study of Mus musculus with 5 samples.

Results

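The last step of a mouse time course of colitis-associated colon cancer, from week 8 (W8) to week 11 (W11), is described here from 2 of the 5 libraries of colon RNA. The members are the libraries labelled W8 and W11, and their difference was taken across the 14720 of 52382 genes in the table that had a mean of at least 1 CPM (counts per 1000000 counted reads) over all 5 libraries. The mice were wild-type C57BL/6 males of 8 to 12 weeks. At both W8 and W11 they had received azoxymethane (AOM, a mutagen) at 8.5 mg/kg by injection on days 1 and 8, and later 1.5% dextran sulfate sodium (DSS, a polymer toxic to colonic epithelium) in the drinking water. DSS was given in cycles of 7 days, with 14 days of plain water after the first, and how many cycles each group had completed is not stated. The other libraries were an untreated control (W0, on distilled water), AOM alone (W2) and AOM with DSS at week 5 (W5), from mice of the same strain, sex and genotype. Each time point has 1 library. From each group 3 mice were taken for RNA and protein work, and whether their RNA was pooled is not given. No difference described here therefore has a replicate check.

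AOM damages the DNA of crypt cells, and repeated DSS colitis then drives cycles of ulceration and repair in which tumours arise, mostly in the distal colon. Tumours of this model carry active Wnt signalling, which keeps crypt cells in a stem-like state. The normal colonic surface is kept by absorptive colonocytes, which take up salt and water, and by goblet cells, which secrete the mucus that holds bacteria away from the epithelium. Paneth cells, which make antimicrobial peptides, belong to the small intestine and appear in the colon mainly in chronic inflammation and in tumours.

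Folds are differences of log2(CPM + 1) between W11 and W8, which understates the change of low genes. The words rose, fell and changed are kept for a fold of at least 2, that is, a log2 fold of at least 1 in size. Where a gene is given 5 levels, they run in the order W0, W2, W5, W8 and W11. A fold change in CPM is given with its exact 95% interval, which covers counting error only and not the difference between mice. The gene closest above the expression minimum, 3110045C21Rik, had a mean of 1.0001 CPM, and the closest below, Gm10313, had 0.99973. Since these are bulk libraries, fewer cells of a type and less RNA per cell cannot be told apart.

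The libraries held between 13389184 (W8) and 20379429 (W5) counted reads, with 14945610 at W11, and detected genes numbered 20111 to 21245. Colon tissue is named in the labels beside a cell type of intestinal epithelial cells. Epcam, an adhesion protein of epithelium, was at 2004 CPM at W8 and 1715 at W11, and the keratin Krt8 was at 8221 and 8683. The smooth muscle actin gene Acta2 was at 685 CPM at W8 and 705 at W11, and the B cell receptor gene Cd79b at 22.4 and 54.3. Krt8 and Acta2 were chosen after their values were seen. Epithelium, muscle and lymphoid tissue were thus all present in both libraries. Several genes that colon uses, such as the epithelial factor Elf3 and B2m of MHC class I, were listed at 0 in all 5 libraries, so a value of 0 is not read as absence.

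Between W8 and W11, 501 genes rose (3.4% of those tested) and 1758 fell (11.9%), so that 15.3% changed. Over all genes the median log2 fold was -0.30, with 4775 genes above 0 and 9945 below. A shift of this size is removed by other scalings, since under median-of-ratios scaling the median was 0.01. Of the changed genes 22.2% had risen, and with all folds centred on their median the share was 65.5% (1118 rose and 590 fell). The balance of directions was thus set by the scaling, and the text below relies on which gene groups moved rather than on how many genes fell. The W11 library was the highest of the 5 in 444 of the 501 genes that rose (88.6%) and in 19.9% of all tested genes. It was the lowest of the 5 in 1447 of the 1758 genes that fell (82.3%) and in 41.4% of all tested genes. For most changed genes W11 therefore lay outside the range of the 4 earlier libraries.

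Folds fell steadily with gene length. Length was taken relative to the median tested gene, from the ratio of the deposited columns. In the shortest decile of genes, with a median relative length of 0.123, the median log2 fold was 0.29, and 15.9% rose and 6.18% fell. In the longest decile, with a median relative length of 3.03, the median was -0.69, and 0.34% rose and 26.4% fell. Every decile had a lower median than the one before it. The Spearman rho between fold and length across genes was -0.43, as a description, since genes are not independent and all share the same libraries. The earlier steps had rho values of -0.12 (W2 over W0), 0.10 (W5 over W2) and -0.12 (W8 over W5).

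**Figure D1:**
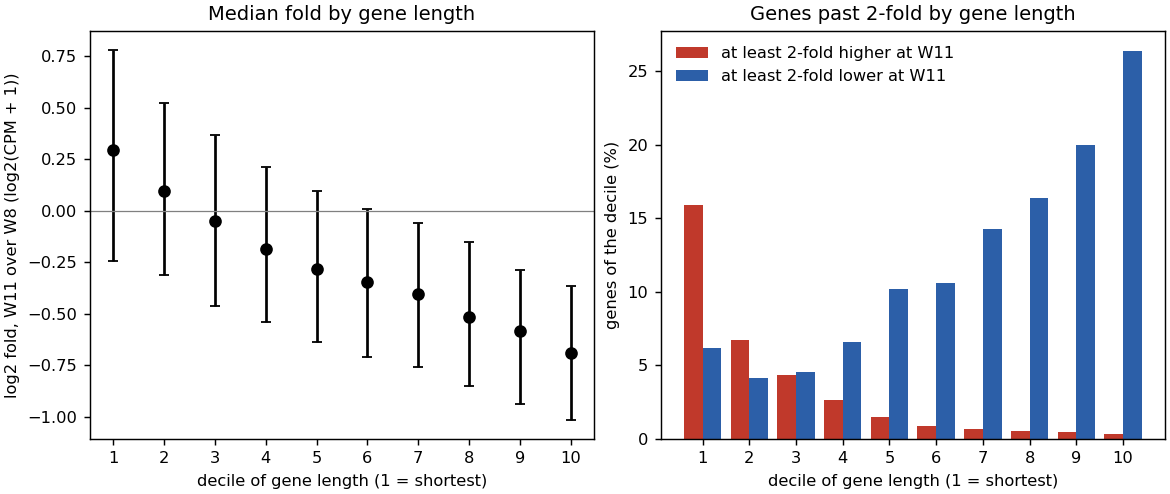
Gene length and the step from W8 to W11. The left panel plots the median log2 fold (points) and the range from the 25th to the 75th percentile (bars) in each decile of gene length, and the right panel the percent of genes in each decile that were at least 2-fold higher or lower at W11. Medians run from 0.29 in the shortest decile to -0.69 in the longest.

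The trend was strongest in the W11 library. Against the mean of the other 4 libraries W11 had a rho of -0.43, with medians of 0.47 in the shortest and -0.72 in the longest decile, while W8 against its other 4 had a rho of 0.10. For W0, W2 and W5 these values were 0.24, 0.05 and 0.23, each with W11 among the 4 libraries compared. The trend was present in protein-coding genes alone (rho -0.42), in genes above the median of mean CPM (-0.49) and in those below it (-0.38). Transcript GC content was nearly unrelated to these folds (rho -0.01), and so was mean CPM (-0.07). The longest decile of genes held between 9.72% and 9.99% of counts in the other 4 libraries and 6.84% at W11.

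Because of this trend a second scale was used, after the length trend was removed, that is, after the running median at each gene's length was subtracted. The medians of all 68 lists on both scales stand in the plot of list medians, and the text gives the second beside the first for the main groups. On the second scale 661 genes rose (4.49%) and 557 fell (3.78%), so that 8.27% changed. Of the genes that rose as measured, 353 (70.5%) also rose on the second scale. Of those that fell, 461 (26.2%) also fell on the second scale. This step also centres the folds, and centring alone kept 590 of the 1758 falls and all 501 rises. Of the 590 falls left by centring, 332 also fell on the second scale, and of the 1118 centred rises 522 also rose on it. The length step thus removed calls beyond those removed by centring. Counts of list members below are to be read against 3.4% higher and 11.9% lower as measured, and 4.49% and 3.78% on the second scale.

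**Figure D2:**
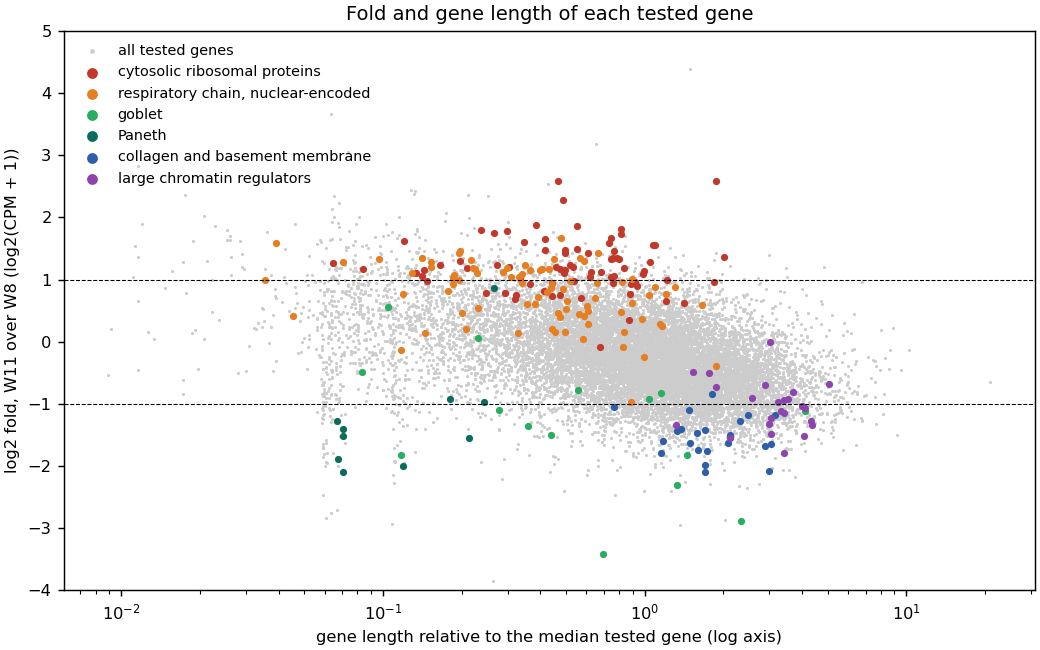
Fold against gene length for each of the 14720 tested genes (grey) and for 6 gene lists (coloured). The x axis is gene length relative to the median tested gene on a log axis, the y axis the log2 fold of W11 over W8, and the dashed lines mark 2-fold. Cytosolic ribosomal protein genes lie above the cloud at their length and goblet and Paneth genes mostly below it, while the large chromatin regulators lie within it.

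The leading rise was in the genes of the protein-making and respiratory machinery. Of 77 tested genes for cytosolic ribosomal proteins, 54 rose and none fell, against 3.4% and 11.9% of all genes, and 76 lay above 0. The list holds 2 processed pseudogenes, and of its 75 protein-coding genes 53 rose. The median log2 fold of the list was 1.18 beside -0.30 for all genes. With the length trend removed the median was 1.25, and 56 rose. The list held 4.8%, 6.21%, 4.62% and 5.44% of all counts from W0 to W8 and 12.5% at W11, so that W11 stood alone.

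Rps24, a protein of the small ribosomal subunit, was at 392.4, 891, 632, 405 and 2448 CPM from W0 to W11. W11 was above all 4 earlier libraries, and the rise from W8 was 6.04-fold (5.87 to 6.22), a log2 fold of 2.59, or 3.16 with the length trend removed. Rps27a, which encodes a ubiquitin fused to a small subunit protein, was at 152, 281, 377, 179.6 and 1085 CPM from W0 to W11. Its log2 fold was 2.59, and it overlaps the antisense gene Clhc1. Rps27 was at 448, 957, 216, 419 and 2043 CPM from W0 to W11. In each of these genes W11 was the highest and W2 or W5 the next. Ribosomal protein genes have many processed pseudogenes in the mouse genome, so reads could be split between copies, and 91 listed names include 11 at 0 in all libraries, among them Rpl13 and Rps10.

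Messenger RNAs of ribosomal proteins are known to begin with an uninterrupted run of pyrimidines (C or T in DNA letters), through which their translation is controlled. The RefSeq start windows (GRCm38.p6) of the leading pair with a window are shown because they carry this feature, with the run over the start in capitals. Rps24 lies at chr14:24490648-24490707 on the plus strand and Rps27 at chr3:90213619-90213678 on the minus strand, 60 bases each.
Rps24: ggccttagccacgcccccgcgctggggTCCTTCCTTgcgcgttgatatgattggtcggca
Rps27: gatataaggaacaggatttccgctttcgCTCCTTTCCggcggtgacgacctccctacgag
Each run was 9 letters long, counted on both sides of the annotated start, so that part of each lies before the first transcribed base. A run of at least 5 pyrimidines over the annotated start was present in 18 of the 56 tested ribosomal protein genes with a window (32.1%) and in 1236 of 10725 tested genes with one (11.5%). A run of letters at an annotated start is a description of the sequence and depends on where the annotation places the start.

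Nuclear-encoded subunits of the respiratory chain moved the same way. The list, taken by gene name, had 83 tested entries, of which 5 are processed pseudogenes and Ndufb1 is annotated as non-coding. Of the 77 protein-coding genes 28 rose (against 3.4% of all genes) and none fell, with a median of 0.85, and 23 rose with a median of 0.84 once the length trend was removed. Cox6b1, a subunit of cytochrome c oxidase, was at 199.5, 467, 94.3, 184 and 510.5 CPM from W0 to W11, with a log2 fold of 1.47. Ndufc2, of complex I, rose from 90.8 to 247 CPM (1.43). Cox6b1 was also high at W2, so the W11 level was close to that of 1 earlier library. The nuclear-encoded list summed to 18312, 23395, 16827, 16680 and 26365 CPM from W0 to W11, with W2 the next highest. Atp5o, a stalk subunit of the ATP synthase, rose from 8.81 to 30.04 CPM (1.66), a level that W2 had matched (30.39 CPM). Its reads could belong to a second annotated copy at the same place. Of the genes encoded on the mitochondrial genome, 3 of 12 rose (median 0.59, or 0.33 with the length trend removed), the largest being mt-Co3 from 14.2 to 80.7 CPM. The gene mt-Co3 overlaps mt-Atp6 on the same strand. This list summed to 15720, 37851, 16538, 12576 and 19670 CPM from W0 to W11, so W2 and not W11 was the highest.

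Proteins of the mitochondrial ribosome had 9 of 71 genes higher and none lower (median 0.58, and 0.63 with 17 higher when the length trend was removed). Mrpl30 rose from 65.4 to 167 CPM and Mrps24 from 70.4 to 174. Proteasome genes lay above the median of all genes (median 0.34, or 0.52 with the length trend removed, with 30 of 36 above 0). The 2-fold criterion was passed as measured only by Psma7, a subunit of the core particle, at 1.01, and by 3 genes on the second scale. Of 20 translation factors the elongation factor gene Eef1b2 alone rose as measured (1.18, where the antisense gene Ndufs1 overlaps it), and 3 rose with the length trend removed (medians 0.15 and 0.51). The initiation factor subunit Eif3e was one of them, at 0.72 as measured and 1.10 on the second scale, and the scaffold Eif4g1 stood at -0.82 and -0.19. None of the 20 ribosome biogenesis genes changed (median -0.03, and 0.34 with the length trend removed), with the transcription factor Myc at 38.7 CPM at W8 and 24.8 at W11.

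Histone genes had 9 of 28 tested members higher, against 3.4% of all genes, and none lower (median 0.86, or 0.69 with the length trend removed). H2az1, a variant H2A that is made outside replication as well, rose from 123 to 314 CPM (1.35), and the linker histone H1f2 from 79.3 to 195 (1.29). The replicative H4 gene H4c8 was at 0.747 and 5.49 CPM. Most replicative histone messages lack a poly(A) tail, and the list covers 52 more names under the expression minimum.

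Among single genes, the largest rise that was kept with the length trend removed was in Myo3a, a myosin of actin-rich protrusions known from the hair cells of the inner ear. Myo3a was at 3.77, 21.6, 3.63, 2.17 and 65.8 CPM from W0 to W11. The W11 level was 30.4-fold that of W8 (21.01 to 45.6, from 29 and 983 reads), a log2 fold of 4.40, and W2 held the next highest level. Krt35, a keratin of the hair shaft, was listed at 0 at W0 and W2, at 0.147 CPM at W5, 0.448 at W8 and 12.2 at W11. Its ratio was 27.2 (12.2 to 75.02, from 6 and 182 reads), and no other library came near W11.

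Hoxd12, a homeobox factor of the distal end of the HoxD cluster, was at 8.49, 10.8, 5.01, 4.93 and 33.3 CPM from W0 to W11. It rose 6.76-fold (5.22 to 8.88), and the W11 level was above all others. Its neighbour Hoxd10 rose from 1.19 to 5.22 CPM (log2 1.50), close to the 4.99 CPM of W2. Hoxd11 stood at 0.98, just under the criterion, and Hoxd9 at 0.66 and Hoxd13 at 0.52, which were chosen after their values were seen. All 5 of these HoxD genes were thus higher at W11 than at W8, and 2 of them passed the criterion. The list of posterior Hox and Cdx genes as a whole had a median of -0.10, with 2 of 14 higher and 1 lower, and of 0.19 on the second scale, where Hoxd11 passed 2-fold as well (1.17). The member that fell was Cdx2, the master factor of intestinal identity, which was at 86.9, 42.5, 93.1, 50.7 and 23.4 CPM from W0 to W11 (log2 -1.08, and -1.15 with the length trend removed).

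The other leading rises were mostly of short genes. Lgals1, which encodes the beta-galactoside-binding protein galectin-1, was at 75.9, 109, 53.04, 96.5 and 326 CPM from W0 to W11, a rise of 3.38-fold (3.18 to 3.6). Ifi27l2a, an interferon-inducible gene, rose from 46.2 to 145 CPM. Snrpd2, a core protein of the spliceosome, rose from 58.3 to 202 CPM, and Dpm3, a subunit of dolichol-phosphate mannose synthase, from 8.89 to 34.1. Snrpd2 and Dpm3 had their next highest level at W2. Smim4, a small membrane protein, rose from 7.47 to 26.2 CPM, and Cyp2c69, a cytochrome P450 with close paralogs, from 2.69 to 10.8. The W11 level of Cyp2c69 was under the 13.1 CPM of W0, so this gene had moved back towards the control level. Wincr1, a long non-coding RNA named for its induction by Wnt signalling, rose from 12.2 to 54.7 CPM, with 49.2 at W2.

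Mt4 was the only gene among the leading rises that was higher in each library than in the one before. Metallothioneins are small cysteine-rich proteins that bind zinc and copper, and their genes lie side by side on mouse chromosome 8. Mt1 and Mt2 are made in most tissues, Mt3 is best known from brain, and Mt4 from stratified epithelia. Their induction by metals runs through the factor MTF-1, which binds metal response elements. The 4 RefSeq promoter windows (GRCm38.p6, all on the plus strand, 250 bases before the start and 50 after it) are shown because these neighbouring genes differed in course. Capitals mark the element's core, searched as TGCACNC or TGCGCNC on both strands (so that a core on the other strand reads as its reverse complement), with no overlap between matches.
Mt4: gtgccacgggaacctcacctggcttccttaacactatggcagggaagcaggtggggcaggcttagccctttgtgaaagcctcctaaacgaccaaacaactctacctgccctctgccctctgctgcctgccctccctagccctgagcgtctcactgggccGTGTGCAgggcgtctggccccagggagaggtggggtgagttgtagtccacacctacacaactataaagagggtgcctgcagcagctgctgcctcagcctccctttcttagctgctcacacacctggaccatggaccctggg
Mt3: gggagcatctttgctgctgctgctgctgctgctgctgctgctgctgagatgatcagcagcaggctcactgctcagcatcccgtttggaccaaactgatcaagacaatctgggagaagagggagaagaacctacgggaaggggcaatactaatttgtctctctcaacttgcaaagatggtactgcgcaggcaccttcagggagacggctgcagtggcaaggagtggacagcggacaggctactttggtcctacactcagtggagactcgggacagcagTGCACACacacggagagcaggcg
Mt2: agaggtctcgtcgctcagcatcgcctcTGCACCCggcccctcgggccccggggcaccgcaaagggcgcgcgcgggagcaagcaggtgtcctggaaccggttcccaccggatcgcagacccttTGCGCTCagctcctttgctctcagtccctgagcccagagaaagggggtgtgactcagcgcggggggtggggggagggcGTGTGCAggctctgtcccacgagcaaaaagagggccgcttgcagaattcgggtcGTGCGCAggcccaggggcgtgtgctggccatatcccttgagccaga
Mt1: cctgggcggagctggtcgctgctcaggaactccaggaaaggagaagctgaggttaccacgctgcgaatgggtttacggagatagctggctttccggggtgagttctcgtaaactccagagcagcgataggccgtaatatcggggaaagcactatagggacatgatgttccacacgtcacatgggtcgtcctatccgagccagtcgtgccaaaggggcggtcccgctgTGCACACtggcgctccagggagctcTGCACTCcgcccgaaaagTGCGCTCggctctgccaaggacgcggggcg
The windows lie at chr8:94136954-94137253 (Mt4), chr8:94152357-94152656 (Mt3), chr8:94172368-94172667 (Mt2) and chr8:94178839-94179138 (Mt1), with 15403, 20011 and 6471 bases between successive starts. The core occurred 1 time in the Mt4 window, 1 in Mt3, 4 in Mt2 and 3 in Mt1. Of all 32851 windows in the table, 25.7% held at least 1 core, 7.11% at least 2 and 1.97% at least 3. Single matches in Mt4 and Mt3 are thus common by this measure, and a match is not a bound site.

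Mt4 was at 0, 0.205, 15.4, 86.6 and 327 CPM from W0 to W11. The step from W8 to W11 was 3.77-fold (3.54 to 4.03), a log2 fold of 1.90, or 1.62 with the length trend removed. Mt3, chosen after its values were seen, was at 0.871, 2.05, 6.43, 68.9 and 193 CPM from W0 to W11, and it rose by a log2 fold of 1.47 (1.22 with the length trend removed). Both Mt3 and Mt4 were higher in each library than in the one before. Mt1 was at 65.2, 189, 37.8, 61.1 and 96.9 CPM from W0 to W11, and Mt2 at 3.48, 16.1, 5.5, 12.2 and 23.2 CPM from W0 to W11. Mt1 was highest at W2, and from W8 to W11 neither Mt1 (0.66) nor Mt2 (0.88) passed the criterion. The Mt2 reads could include those of the antisense gene Gm45774. A list of oxidative stress genes that includes Mt1 and Mt2 but not Mt3 or Mt4 had no member past 2-fold on either scale (median -0.18, or 0.47 with the length trend removed), with Gclc, an enzyme of glutathione synthesis, at -0.97.

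Many genes for proteins of the mucus layer were lower at W11. Of 15 tested goblet cell genes, 9 fell and none rose, against 11.9% of all genes lower. Their median log2 fold was -1.11 beside -0.30 for all genes. These are short to average genes (median relative length 0.557), and with the length trend removed the median was -1.29 with 8 lower. The summed level of the list was 16779, 8424, 7851, 7147 and 4369 CPM from W0 to W11, with W11 the lowest of the 5.

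Clca1, a secreted metalloproteinase of the mucus that had the largest fall of all named genes, was at 5053, 1195, 1672, 1736 and 161 CPM from W0 to W11. The 3 libraries before W11 lay between 1195 and 1736 CPM, and W11 was 10.8-fold below W8 (10.4 to 11.3). Fcgbp, a large mucus protein that is cross-linked to the mucin network, was at 4002, 1004, 1285, 1155 and 155 CPM from W0 to W11. It showed the same course, with a log2 fold of -2.89 (-2.26 with the length trend removed). Muc2, the gel-forming mucin of the colon, was at 122, 119, 162, 117 and 22.5 CPM from W0 to W11. Its first 4 libraries lay between 117 and 162 CPM, and the W11 level was 5.17-fold below W8 (4.59 to 5.83).

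Zg16, the mucus lectin named in the title of the series, was at 3818, 2691, 1319, 629.8 and 291 CPM from W0 to W11. The last step was 2.16-fold (2.09 to 2.24), a log2 fold of -1.11, or -1.29 with the length trend removed. Its last step was thus under that of Clca1, Fcgbp and Muc2, which had moved by less than 2-fold between W2 and W8 while Zg16 was lower in each library than in the one before. Retnlb, an antibacterial protein of goblet cells, fell from 51.2 to 13.6 CPM (-1.83), and its W2 level of 6.15 CPM was lower still.

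The regulators of the goblet lineage were also lower. Atoh1, the factor that commits crypt cells to the secretory fate, was at 52.4, 38.2, 41.3, 31.8 and 11.8 CPM from W0 to W11, with a log2 fold of -1.35 (-1.44 with the length trend removed). Creb3l1, a membrane-bound transcription factor of secretory cells, fell from 178 to 61.96 CPM (-1.51), and Spdef, which matures goblet cells, stood at -0.93. The other members that fell were Fer1l6, of the ferlin family, at -1.83 (-1.38 with the length trend removed), and Sytl2, a protein of vesicle transport, at -1.11 (-0.38). Tff3, the trefoil peptide, stood at -0.48, and Agr2, a disulfide isomerase needed to make mucin, was at 1289 CPM at W8 and 1343 at W11. Spink4, a small protease inhibitor, was at 627, 596, 1023, 1295 and 1898 CPM from W0 to W11, highest at W11. These 8 genes were chosen from the goblet list after their values were seen. The goblet list was therefore not uniform, with Clca1, Fcgbp and Muc2 lowest and Agr2 and Spink4 above 0.

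**Figure D3:**
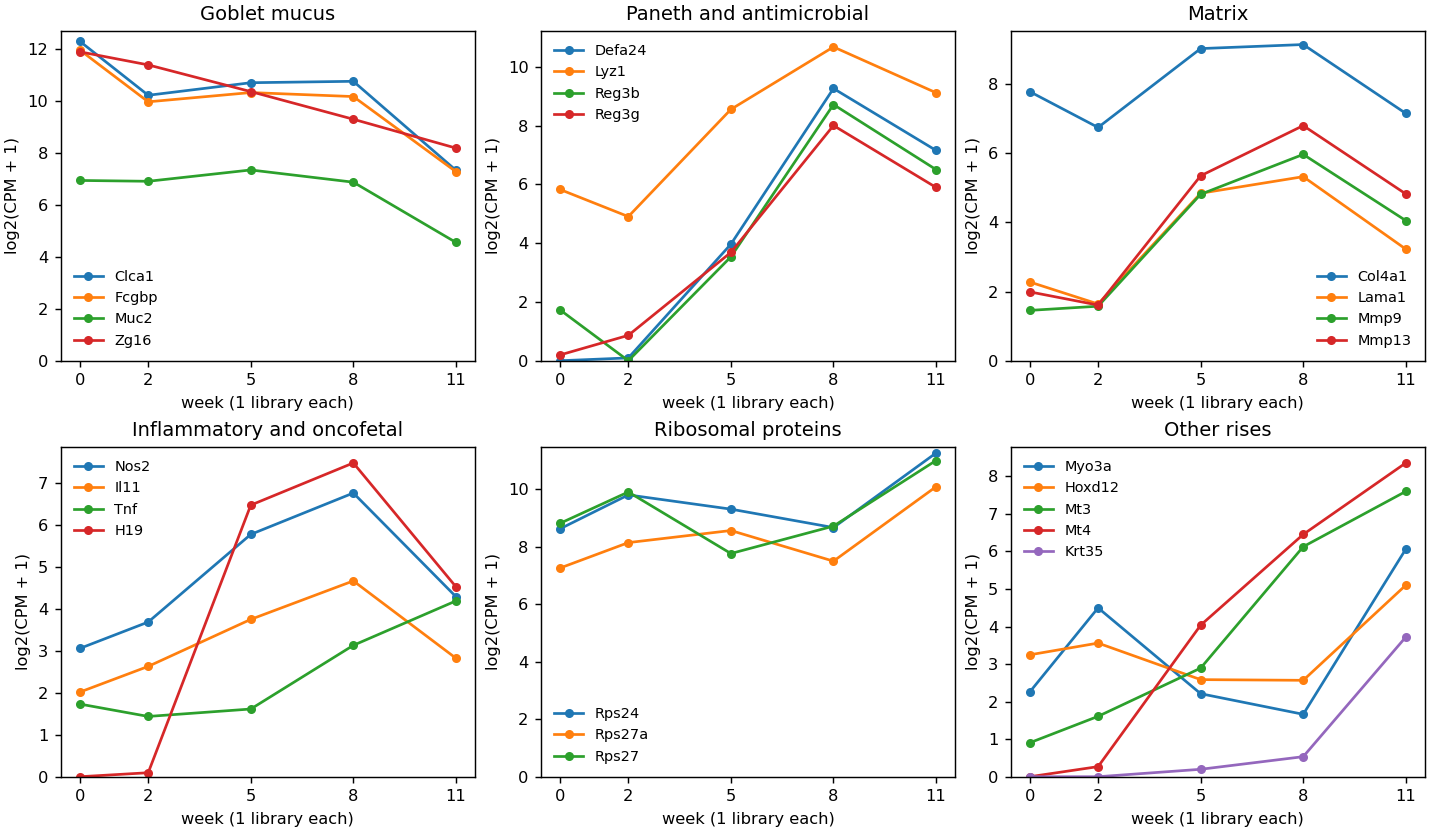
Levels of the genes the text turns on in each of the 5 libraries, 1 library a time point. The x axis is the week and the y axis log2(CPM + 1). Clca1, Fcgbp and Muc2 drop between W8 and W11. Paneth, matrix and inflammatory genes that had climbed to W8 are lower at W11, except Tnf, which is higher. Mt3 and Mt4 continue upwards.

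Paneth cell products summed to 195, 37.5, 696, 3749 and 1684 CPM from W0 to W11, with the highest level at W8. Of 10 tested genes, 7 fell and none rose, against 11.9% of all genes lower, with a median of -1.47. With the length trend removed 9 fell, against 3.78% of all genes, with a median of -1.75. Defa24, an alpha-defensin with near-identical copies that can share reads, was at 0, 0.0683, 14.6, 614 and 142 CPM from W0 to W11. Lyz1, the lysozyme of Paneth cells, was at 55.8, 28.96, 375, 1636 and 555 CPM from W0 to W11. Ang4, a microbicidal ribonuclease, was at 131, 3.89, 89.6, 203 and 49.8 CPM from W0 to W11. Defa24 and Lyz1 at W11 were still above the first 3 libraries, whereas Ang4 was under W0. A baseline that takes in W5 was added after seeing the data, and its form decides the sign. Against the mean of log2(CPM + 1) at W5 and W8 the Paneth median was 0.54, and against the mean CPM of both it was -0.55. Mmp7, which activates defensins and is a Wnt target, stood at -0.92, and Pnliprp2, a lipase of Paneth cells, was at 2.25, 1.78, 41.5, 227 and 412 CPM from W0 to W11, the 1 member above 0. Both were chosen after their values were seen.

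The antimicrobial lectins moved with the defensins. Reg3b, a C-type lectin against bacteria, was at 2.32, 0, 10.6, 419.8 and 89.8 CPM from W0 to W11, and fell 4.68-fold (4.4 to 4.97) from W8. Reg3g, its paralog, which can share reads, was at 0.145, 0.82, 11.9, 256 and 58.6 CPM from W0 to W11. Duox2, the epithelial oxidase that makes hydrogen peroxide, was at 104, 85.5, 223, 281 and 77.2 CPM from W0 to W11. For all 3 genes W8 was the highest library. Of 14 tested antimicrobial genes, 5 fell, against 11.9% of all genes, and none rose (median -0.86, and -0.81 with 6 lower when the length trend was removed). Against the mean of log2(CPM + 1) at W5 and W8 the log2 folds were 0.38 for Reg3b and 0.052 for Reg3g, and against the mean CPM of W5 and W8 they were -1.25 and -1.18.

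The extracellular matrix was lower almost throughout. Of 22 tested genes for collagens and basement membrane proteins, 21 fell, with a median of -1.56, the lowest of the 68 lists. These genes are long (median relative length 1.71), and with the length trend removed the median was -0.99 and 11 fell. Their summed level was 3952, 2436, 6678, 6366 and 2378 CPM from W0 to W11, so that W11 was near W2 and under W0.

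Col4a1, a chain of the basement membrane collagen, was at 219, 106, 519.8, 564 and 141 CPM from W0 to W11. Its log2 fold was -1.99, or -1.43 with the length trend removed, and it overlaps in the annotation with its neighbour Col4a2, which was at 398 CPM at W8 and 115 at W11. Lama1, a laminin chain, was at 3.85, 2.12, 27.7, 38.99 and 8.36 CPM from W0 to W11. Col12a1, a collagen on the surface of fibrils, fell from 238 to 55.1 CPM (-2.09, and -1.41 with the length trend removed). Each had its highest level at W8.

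Proteins that modify the matrix were among the largest falls of all genes. Adamts12, a secreted metalloproteinase, was at 2.69, 2.05, 11.4, 23.5 and 2.34 CPM from W0 to W11, 10.01-fold lower than at W8 (7.05 to 14.6). Ltbp2, a microfibril protein, was at 3.34, 4.92, 12.1, 39.2 and 7.03 CPM from W0 to W11, and Sulf1, which removes sulfate groups from heparan sulfate, was at 30.3, 27.5, 72.3, 131 and 25.8 CPM from W0 to W11. All 3 were highest at W8, and Adamts12 and Sulf1 were at W11 near their W0 and W2 levels. The matrix metalloproteinases, which are not long genes (median relative length 0.691), had 6 of 13 lower (against 11.9% of all genes) and none higher, and a median of -0.92 on either scale. Mmp13, a collagenase, was at 2.98, 2.05, 39.7, 110.2 and 27.3 CPM from W0 to W11, a log2 fold of -1.97. Mmp9, the gelatinase of neutrophils, was at 1.74, 1.98, 27.1, 61.5 and 15.6 CPM from W0 to W11 (-1.91), and Mmp28 fell from 22.6 to 5.69 CPM. Mmp13 and Mmp9 at W11 remained above W0 and W2.

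Inflammatory mediators did not move as 1 block. Nos2, the inducible nitric oxide synthase, was at 7.33, 11.9, 53.8, 108 and 18.6 CPM from W0 to W11, and fell 5.79-fold (5.09 to 6.6). Il11, a cytokine of stromal cells that drives STAT3 signalling, was at 3.05, 5.19, 12.5, 24.4 and 6.09 CPM from W0 to W11. Lif, of the same family, fell from 7.62 to 2.68 CPM. Up to W8, Nos2 and Il11 were higher in each library than in the one before. Tnf went the other way, and was at 2.32, 1.71, 2.06, 7.77 and 17.3 CPM from W0 to W11, a rise of 2.22-fold (1.76 to 2.82) to the highest level of the 5 libraries. Of 10 tested members, 3 fell and 1 rose, with a median of -0.63, and the same counts with the length trend removed.

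Chemokine genes were divided as well, with 2 of 17 higher, 1 lower and a median of 0.16 (-0.06 with the length trend removed). Ccl8, a monocyte attractant, was at 16.5, 24.9, 16.2, 20.02 and 60.8 CPM from W0 to W11, and rose 3.04-fold (2.65 to 3.5). Cxcl1, a neutrophil attractant, was at 1.52, 4.37, 9.03, 6.57 and 17.6 CPM from W0 to W11. Cxcl9, an interferon-gamma-induced T cell attractant, fell from 29.4 to 12.98 CPM (-1.12). Ccl8 and Cxcl1 were highest at W11.

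The listed interferon response genes were lower than the median of all genes, with 5 of 16 lower and none higher (median -0.83, and -0.59 with 2 lower when the length trend was removed). Ifi27l2a, an interferon-inducible gene outside the list, rose (1.62, or 1.34 with the length trend removed). Iigp1, an interferon-inducible GTPase, was at 20.1, 139, 94.5, 51.3 and 19.002 CPM from W0 to W11, and Oasl2, an antiviral oligoadenylate synthetase-like protein, at 113, 171, 201, 89.3 and 36.7 CPM from W0 to W11. Both had passed their highest level at W2 or W5 and were near or under W0 by W11. Ifit3 fell from 23.6 to 9.97 CPM (-1.17, and -1.33 with the length trend removed). The regulators of MHC genes fell as measured, Ciita of class II at -1.34 and Nlrc5 of class I at -1.30, but with the length trend removed they stood at -0.72 and -0.68. No other tested gene of either MHC list passed 2-fold. The class II invariant chain Cd74 was at 1202 CPM at W8 and 976 at W11, and of the genes that load class I, Tapbp stood at -0.72 and the peptide transporter Tap1 at -0.68 (-0.34 and -0.11 with the length trend removed).

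Lymphocyte markers stood above the median of all genes, and the macrophage median lay a little below it (-0.42 beside -0.30). Of 8 tested B cell genes, 7 lay above 0 with 1 past 2-fold (median 0.64), and 4 rose with the length trend removed (median 0.98). Cd79b, the signalling chain of the B cell receptor, was at 35.1, 71.6, 20.1, 22.4 and 54.3 CPM from W0 to W11. It was lower at W8 than at W0 and W2, and W11 lay within the range of the earlier libraries. T cell genes had 9 of 12 above 0 and none past 2-fold on either scale (median 0.40, or 0.64 with the length trend removed), with Cd3d at 0.96 and Cd8a, of cytotoxic T cells, at -0.88. Of 5 tested genes of cytotoxic lymphocytes, 3 lay above 0. The granule protease Gzma rose from 4.85 to 12.04 CPM, and its relative Gzmb was at 10.9 CPM at W8 and 7.23 at W11, the other way.

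Of 11 tested macrophage genes, 3 fell, against 11.9% of all genes, and none rose (median -0.42), and with the length trend removed 1 fell (median -0.28). Above 0 lay 4 of the 11, and the summed level of the list was 1016 CPM at W8 and 960 at W11. Cd163, the haemoglobin scavenger receptor of resident macrophages, was at 11.9, 6.97, 23.01, 7.99 and 1.2 CPM from W0 to W11, with a log2 fold of -2.03. Csf1r, the receptor for the macrophage growth factor, fell from 123 to 60.4 CPM (-1.01, or -0.61 with the length trend removed). Neutrophil genes had 2 of 7 lower as measured and 3 with the length trend removed (medians -0.20 and -0.36), with Csf3r at -1.33 and the granule protein Ltf at -1.53. The abundant neutrophil proteins S100a8 (-0.06) and S100a9 (0.12), chosen after their values were seen, were level between W8 and W11. Among checkpoint receptors Tigit fell from 2.61 to 0.468 CPM and Havcr2 from 9.26 to 3.88, while Pdcd1, the gene of PD-1, stood at -0.65, all at low counts.

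Genes for the transport of salt and water, the work of the mature surface epithelium, were lower. Of 15 tested transporters, 10 fell and none rose, and all 15 lay below 0 (median -1.16, and -0.94 with 7 lower when the length trend was removed). Car4, a carbonic anhydrase on the surface of colonocytes, was at 1186, 1028, 333, 181 and 33.3 CPM from W0 to W11. It was lower in every library than in the one before, and its last step was 5.46-fold (4.95 to 6.02), with a log2 fold of -2.41 on either scale. Slc26a3, the chloride and bicarbonate exchanger, was at 533, 652, 387, 105 and 32.7 CPM from W0 to W11, and Atp12a, a colonic proton and potassium pump, at 192, 62.3, 61.3, 54.1 and 21.1 CPM from W0 to W11. Clca4a was at 99.3, 63.6, 123, 87.3 and 20.1 CPM from W0 to W11, and its paralog Clca4b at 21.1, 16.5, 648, 862 and 341 CPM from W0 to W11. The paralogs can share reads, and they differed in course, since Clca4b was high from W5 onwards and Clca4a was not.

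The absorptive colonocyte list as a whole had 5 of 19 lower and none higher (median -0.66, and -0.37 with 4 lower when the length trend was removed). General epithelial genes were nearly level (median -0.07), with Cdx2 the 1 of 11 that fell. Cldn2, the claudin of leaky junctions, fell from 233 to 75.5 CPM (-1.61, and -1.43 with the length trend removed). Of the enteroendocrine genes, the granins Chga, from 42.3 to 18.1 CPM, and Chgb, from 66.4 to 27.2, fell, while the peptide hormone Insl5 stood at 0.78, with 68.9 CPM at W8 and 119.5 at W11. The granins and a hormone of the same cell class thus had opposite signs. None of 7 tuft cell genes changed.

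Wnt targets lay near the shift of all genes, with 1 past 2-fold as measured. Of 22 tested targets and feedback inhibitors, 1 fell as measured, the ubiquitin ligase Rnf43 (-1.11, or -0.54 with the length trend removed), and none rose. Below 0 lay 18 of the 22, beside 9945 of all 14720 tested genes. Kremen1, a co-receptor for Wnt inhibitors, stood at -0.96 and the feedback inhibitor Nkd2 at -0.79. The median was -0.43 beside -0.30 for all genes, and -0.20 with the length trend removed. Of the 4 members above 0, Wif1, a secreted Wnt inhibitor chosen after its values were seen, was at 1.16, 1.37, 95.1, 359.7 and 420.3 CPM from W0 to W11, and Nkd1, an intracellular one chosen likewise, at 19.2, 18.03, 101, 499 and 532 CPM from W0 to W11. Both were far above the first 2 libraries at W8 and W11 alike. Apcdd1, a membrane Wnt inhibitor chosen likewise, was at 2.32, 4.51, 26.5, 129 and 219 CPM from W0 to W11, with a log2 fold of 0.76, or 1.40 with the length trend removed. On the second scale Apcdd1 was the only member past 2-fold. The stem cell receptor Lgr5 was at 5.66, 9.97, 27.6, 65.1 and 32.99 CPM from W0 to W11. Its log2 fold of -0.96 was -0.34 with the length trend removed.

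Stem and progenitor genes had 3 of 13 lower as measured and none on the second scale (medians -0.80 and -0.34). Of 22 proliferation genes, 1 fell, Rrm2 of ribonucleotide reductase, from 84.7 to 36.00 CPM (-1.21, and -1.08 with the length trend removed). Tyms, the thymidylate synthase, stood at 0.87 and at 1.44 with the length trend removed, so the enzymes of nucleotide supply differed in sign. Notch pathway genes had 6 of 9 lower as measured (against 11.9% of all genes) and 2 (against 3.78%) on the second scale (medians -1.11 and -0.72), where Notch3 stood at -1.16 and the ligand Dll4 at -1.11. Ereg, a ligand of the EGF receptor, fell from 20.5 to 5.75 CPM (-1.67, and -1.49 with the length trend removed).

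H19, an imprinted long non-coding RNA that is abundant before birth, was at 0, 0.0683, 87.9, 178 and 22.1 CPM from W0 to W11. It was near 0 in the libraries without DSS, highest at W8, and 8.04-fold lower at W11 (7.16 to 9.05), with a log2 fold of -2.95 (-2.53 with the length trend removed). The microRNA gene Mir675 lies within H19 and antisense clones overlap it. Igf2bp3, an oncofetal RNA-binding protein, was at 36.9, 8.4, 2.99, 6.05 and 13.7 CPM from W0 to W11, and rose 2.27-fold (1.74 to 2.97) while remaining under W0. The pair of fetal-type genes thus moved in opposite directions. Igf2, the growth factor next to H19, was listed at 0 in all libraries.

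Lists made of long genes moved with the length trend. Of 24 large chromatin regulators, with a median relative length of 3.28, 13 fell as measured and 1, the histone methyltransferase gene Kmt2a, with the length trend removed (medians -1.05 and -0.33). Of 24 large cytoskeletal and junction genes, 17 and 1 fell (medians -1.13 and -0.42). Lipid synthesis genes behaved alike, with 4 of 17 lower as measured and none on the second scale. The medians of these lists were thus smaller in size with the length trend removed, but stayed negative (-0.17 for lipid synthesis, from -0.76 as measured).

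**Figure D4:**
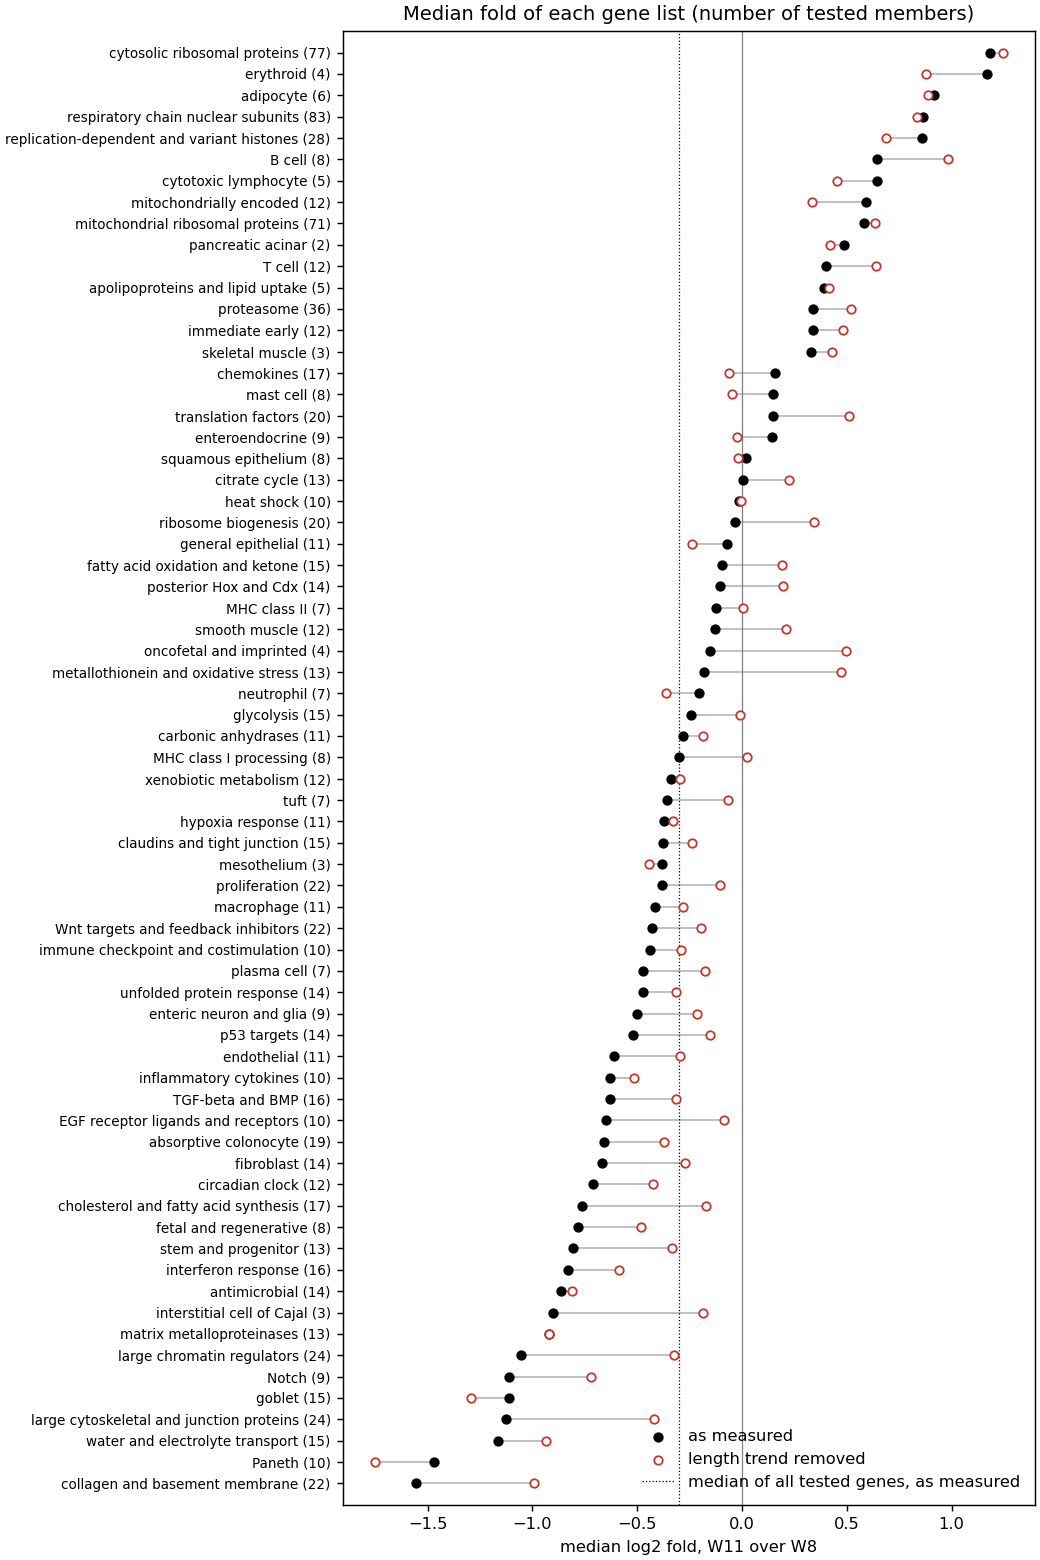
Median log2 fold of W11 over W8 for each gene list with at least 2 tested members (number tested in brackets), as measured (black) and with the length trend removed (red rings). The dotted line marks the median of all tested genes. Ribosomal, respiratory and histone lists stay right of 0 on both scales and goblet, Paneth, collagen and metalloproteinase lists stay left of it, while the lists of large genes move most of the way to 0.

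Among metabolic and stress genes, Per2, a repressor of the circadian clock, had the largest fall. Per2 was at 119, 65.02, 59.1, 52.1 and 9.03 CPM from W0 to W11, a step of 5.76-fold (4.79 to 6.98), and Per1 fell from 44.4 to 16.7 CPM (-1.36, or -0.93 with the length trend removed). Per2 was lower in each library than in the one before, with its largest step by fold at the end. No time of day is among the sample annotations used here, so its part in the clock gene values was not tested. Tef, a clock output factor, fell from 94.03 to 39.3 CPM (-1.24, or -0.61 with the length trend removed), and 3 of 12 clock genes fell as measured and 1 on the second scale. Of 12 immediate early genes, 11 lay above 0, and Atf3, a stress-induced factor, rose from 66.9 to 183 CPM (1.44). Hypoxia response genes had 3 of 11 lower as measured, such as Vegfa at -1.15, and none with the length trend removed. None of the 13 citrate cycle genes or the 15 genes of fatty acid oxidation changed. Of 15 glycolysis genes, Hk2 fell, at -1.11, or -0.73 with the length trend removed. The citrate cycle and fatty acid oxidation genes were thus within 2-fold, beside the 28 chain subunit genes that rose.

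Growth factor pathways were lower in some members. TGF-beta and BMP genes had 5 of 16 lower as measured (against 11.9% of all genes) and 2 with the length trend removed (against 3.78%, medians -0.63 and -0.32). Those that stayed past 2-fold were Bmp4, a ligand of the crypt stroma, from 81.2 to 34.3 CPM, and Grem1, the BMP antagonist of the stem cell niche, at 49.4, 48.9, 189, 167 and 72.8 CPM from W0 to W11. A ligand and its antagonist were thus both lower. Of 10 EGF family genes Ereg alone changed (median -0.65, or -0.08 with the length trend removed). Fetal and regenerative genes had 3 of 8 lower as measured and 1 with the length trend removed (median -0.78), led by Ccn2, a target of YAP signalling, from 141 to 57.01 CPM (-1.29, or -1.08 with the length trend removed). Spp1, the secreted phosphoprotein osteopontin, was at 1.02, 0.82, 24.9, 81.4 and 40.1 CPM from W0 to W11.

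Genes of the p53 response had 2 of 14 lower as measured and 0 with the length trend removed (median -0.52), with the apoptosis gene Bax at 0.97. Of 14 genes of the unfolded protein response, 1 fell as measured, the sensor Ern1 (-1.23, or -0.66 with the length trend removed). Its goblet cell counterpart Ern2 was at 72.4 CPM at W8 and 36.3 at W11. No heat shock gene of 10 changed (median -0.02). Xenobiotic metabolism genes had 1 of 12 lower (median -0.34), the efflux pump Abcb1a, which was at 269, 206, 120.02, 68.9 and 30.1 CPM from W0 to W11 and stood at -0.79 with the length trend removed. None of 5 lipid uptake genes changed (median 0.39), 2 of 11 carbonic anhydrases fell, Car4 and the hypoxia-induced Car9 (-1.08, or -0.94 with the length trend removed), and 2 of 15 tight junction genes fell, Cldn2 and Tjp1 (-1.02, or -0.45 with the length trend removed). The shares of these lists that fell lay between 0% and 18.2%, beside 11.9% of all genes.

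The remaining large falls were of genes with no shared role. Grk5, a kinase that switches off G-protein-coupled receptors, was at 7.26, 8.13, 10.5, 31.3 and 5.09 CPM from W0 to W11, with its peak at W8. Cracr2a, a regulator of calcium entry, fell from 33.8 to 6.22 CPM, and Crybg2 from 25.02 to 4.28. Pkd1, the gene of polycystin-1, is long, and its log2 fold of -2.19 became -1.46 with the length trend removed. Crybg2 overlaps Cd52 and Pkd1 overlaps Tsc2 on the other strand, and whether the counts used strand is not given, so reads of such pairs cannot be told apart.

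Markers of other tissue layers bear on how alike the W8 and W11 samples were. Smooth muscle genes had none of 12 past 2-fold, with a median of -0.13 (0.21 with the length trend removed), and their summed level was 3835 CPM at W8 and 4268 at W11. Fibroblast genes had 3 of 14 lower (median -0.67), and with the length trend removed 1, Col1a1 at -1.23. Their summed level was 3669 CPM at W8 and 2368 at W11, and it moved with the collagen list, with which it shares members. Endothelial genes had 2 of 11 lower as measured and none on the second scale. The part of fewer or less active stromal cells in the matrix result was not tested.

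Rarer cell types gave mixed values. Of 9 enteric neuron and glia genes 3 fell as measured and 1 on the second scale, Ret, the receptor for a neuronal growth factor, which was at 12.7, 33.1, 19.9, 46.6 and 13.1 CPM from W0 to W11. Kit, a receptor of the pacemaker cells of Cajal and of mast cells, was at 48.05, 22.7, 42.7, 30.3 and 8.43 CPM from W0 to W11, with a log2 fold of -1.73 (-1.12 with the length trend removed). Mast cell genes had 1 of 8 lower, the histamine enzyme Hdc (-1.25, or -0.86 with the length trend removed), while the protease Tpsb2 stood at 0.95 and Mcpt1 at -0.62. The mast cell list had a median of 0.15 (-0.05 with the length trend removed) and a summed level of 221 CPM at W8 and 164 at W11, so its direction differed with the measure, and its share lower was near the 11.9% of all genes. Of 8 squamous epithelium genes, which would mark tissue from the anal end, 1 fell, Krt6a (-1.51), and the list summed to 111 CPM at W8 and 113 at W11. Mesothelium had 1 of 3 lower, Msln (-1.10, or -0.84 with the length trend removed), and skeletal muscle 1 of 3 higher, Ckm (1.04). Of 2 tested pancreatic genes neither passed 2-fold as measured, and Cela1, an elastase gene, did so with the length trend removed (0.88, or 1.05 on that scale).

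Fat and blood markers differed between the samples. Of 6 tested adipocyte genes 3 rose and 1 fell, and their summed level was 82.3, 97.3, 146, 33.6 and 65.2 CPM from W0 to W11. Adipoq, which defines the cell type, was listed at 0 at W8 and 1.2 CPM at W11, and Lep and Plin1 were at 0 in both. The summed level was lowest at W8, and against the mean of log2(CPM + 1) at W5 and W8 the log2 folds of Cfd and Adipoq were negative (-0.41 and -0.55). Of 4 tested globin genes 2 rose, with Hbb-bs at 13.8 CPM at W8 and 37.9 at W11. The part of fat or blood in the sampled piece was not tested.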

How the data were processed

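Total RNA was extracted from colon with TRIzol and sequenced from Illumina TruSeq libraries, per the labels' protocols. Per the submitters' processing notes, the tools were HISAT2 2.2.1, featureCounts and FastQC, with GRCm38 and GRCm39 both named, so no coordinates come from the table. How strand and multi-mapped reads were handled, and with which annotation, has no statement in the labels.

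The authors deposited 2 columns a library. Those headed TPM hold whole numbers with a different sum in each library and were used as counts, as deposited. Those headed count hold RPKM-like deposited values (counts over a gene length and a library denominator). Headers were therefore taken to be exchanged. Both columns gave 1 length per gene in all 2620 genes with over 5 RPKM in every library, within 1%. No other column of sample values was present.

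CPM is the count over the library total times 1000000. Folds are differences of log2(CPM + 1), called at 2-fold, over genes whose mean CPM reached 1. Ratios carry exact conditional (Clopper-Pearson) 95% intervals. Relative length is the ratio of both columns, and the length trend is the median fold in 20 length bins, interpolated and subtracted. GC content is from the longest GENCODE M21 transcript (99.4% of identifiers). Overlaps are from the same annotation. Promoter windows are from RefSeq (GRCm38.p6). There are no tests, since each side has 1 library.

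The compared libraries and the 68 gene lists (25 of cell types, 43 of pathways) were chosen with earlier results of these data known. The text names Zg16, the 15 genes with the largest rises and the 15 with the largest falls among genes with at least 10 CPM that stay past 2-fold with the length trend removed (without clones, pseudogenes, antigen receptor segments and ribosomal, Y-linked, histone and mitochondrial genes), and in each list up to 4 members of at least 1 CPM by size of fold. A gene outside this rule is marked in the text. Other settings tried were a pseudocount of 0.1 or 5, a minimum mean of 5 CPM or none, median-of-ratios scaling, totals without the top 50 genes and those of hemoglobin, immunoglobulin and mitochondria, centring, and removal of the length trend, the GC trend or both. Added after seeing the data were the RPKM library denominators and the mean of W5 and W8 as the baseline, taken over log2(CPM + 1) or over CPM. The calling steps were tested on simulated counts. Versions were Python 3.11.15, matplotlib 3.10.9, scipy 1.17.1, pandas 2.3.3 and numpy 2.4.6. Some genes that the naming rule picks are not reported here.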

Additional observations from a re-analysis of the deposited data

How the results depend on the processing

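The number of genes at least 2-fold higher, 501 as reported, was 267 with a pseudocount of 5 CPM, 1155 under median-of-ratios scaling, 1118 with folds centred on their median, 1126 with the GC trend removed and 816 with the mean of log2(CPM + 1) at W5 and W8 as the baseline. The number at least 2-fold lower, 1758, was 809, 585, 590 and 574 under the first 4 of these, 557 with the length trend removed and 543 with the length and GC trends removed. Removing the GC trend also centres the folds, and its counts lay near those of centring alone (rho of fold with GC -0.01). The other settings kept both counts within 1.5 times. Of 158 named genes past 2-fold, all kept their sign under every setting in the first set of alternatives in which they were tested, which was 143 of them with a mean of at least 5 CPM required. This was nearly fixed in advance and is no support. Another pseudocount or minimum cannot turn a sign. Centring moved the median of all genes from -0.30 to 0, and medians by length decile ran from 0.29 to -0.69, shifts too small to turn most folds past 2-fold. At least 2-fold remained in 108 of them with the length trend removed, 109 under median-of-ratios scaling and 114 with a pseudocount of 5. The genes named as largest rises and falls were picked only among those that stayed past 2-fold with the length trend removed. The count of 108 therefore includes genes that could not fail, and its share of the 158 overstates how often the other named genes stayed past 2-fold. Of 9 lists with a median of at least 1 in size, 3 kept it with the length trend removed. Against the mean of log2(CPM + 1) at W5 and W8, chosen after seeing the data, the sign turned for the Paneth list (median 0.54), Defa24 (0.54), Defa30 (0.53), Reg3b (0.38), Reg3g (0.052), Adipoq (-0.55) and Cfd (-0.41). Against the mean CPM of W5 and W8, also added after seeing the data, the sign turned only for Adipoq (-1.37) and Cfd (-1.85), and the Paneth list (-0.55), Defa24 (-1.14), Defa30 (-0.95), Reg3b (-1.25) and Reg3g (-1.18) kept theirs. Both baselines hold W5, in which these genes differed from W8.

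No paired analysis was possible because each time point has 1 library. With no replicates, differences between mice and between preparations cannot be told apart from those between weeks. Genes at few reads have wide counting intervals, as for Krt35, and a library at 0 has a floor of 3 reads (0.147 to 0.224 CPM).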

Other observations

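Gene classes outside the named lists were compared between W8 and W11 as well. Of 170 tested immunoglobulin variable segments, 55 fell and 7 rose, against 11.9% and 3.4% of all genes. Their reads can come from antibody-secreting plasma cells or from B cells. The median log2 fold of the segments was -0.79, or -1.07 with the length trend removed, beside -0.30 for all genes. The plasma cell list, which holds no variable segment, had a median of -0.47 (-0.18 with the length trend removed), and the joining chain gene Jchain, chosen after its values were seen, was at 2273 CPM at W8 and 2776 at W11. Variable segments share sequence, so their reads can be split between segments.

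Processed pseudogenes numbered 717 among tested genes, and 103 rose and 17 fell (median 0.28), beside 3.4% and 11.9% of all genes. They are short (median relative length 0.113), and their median was 0.01 with the length trend removed. In the shortest decile of all tested genes, 15.9% rose and 6.18% fell. Long intergenic non-coding RNAs had a median of 0.02 (0.04 with the length trend removed), with 22 of 248 higher and 13 lower.

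Short nucleolar RNA genes were among the largest rises: Snord13 was at 3.27, 13.7, 5.84, 3.88 and 24.02 CPM from W0 to W11, and Snord118, which processes ribosomal RNA, at 13.4, 47.7, 30.3, 16.5 and 62.7 CPM from W0 to W11. Both were also high at W2, as was the microRNA locus Mir6236, at 23.01, 125, 7.21, 21.7 and 91.7 CPM from W0 to W11.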
